A study of Mus musculus with 6 samples.

Results

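The genes described here are 32 subunits, regulators and targets of NF-kB, taken by symbol from the 43629 mouse genes of the count table. All 32 symbols matched 1 gene each, and 31 had enough reads to be tested among 13445 genes. Poly-A RNA came from M1, a mouse neuroblastoma cell line grown in culture, and in all 6 libraries doxycycline (4 to 6 µg/ml, given for 6 days) had switched on a short hairpin RNA. The 3 shNT libraries, with genotype labelled WT, carried a non-targeting hairpin, and the 3 shIGF2BP1 libraries, with genotype labelled IGF2BP1 knockdown, carried a hairpin against Igf2bp1, an RNA-binding protein gene. The labels name 1 hairpin against Igf2bp1, so its effect on the target and any off-target effect cannot be told apart. They do not say whether replicates were separate cultures, so p-values measure only the spread between these libraries, which may be technical. In bulk RNA, fewer cells of a type and less RNA per cell cannot be told apart either.

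NF-kB is a family of dimeric transcription factors that cytoplasmic IkB proteins hold inactive. In the canonical arm, receptors for TNF, interleukin-1 and microbial products act through adapters and ubiquitin ligases on the IkB kinase complex, which marks IkB for destruction and frees dimers containing RelA. In the non-canonical arm, the kinase NIK drives processing of the Nfkb2 precursor and release of its dimers with RelB. Active NF-kB induces many of its own inhibitors and some of its own subunits, and it is widely studied in tumour cells for its part in inflammation and survival. The members were split by this textbook knowledge. The split gave 13 feedback genes, which NF-kB induces and which act in the pathway, 4 effector targets, which it induces and which act outside it, and 15 constant components, whose mRNA is generally held steady.

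The promoters of the members differed in the sequence that NF-kB binds, the kB consensus of 10 bases. It was searched on both strands in RefSeq windows of 300 bases on GRCm38.p6, from 250 bases before to 50 bases after a transcript start. Windows were found for 26 of the 32 members, and none for Nfkbiz, Nfkb1, Relb, Vcam1, Ikbkb and Tradd. A match was present in 7 of 10 feedback genes (70.0%), 2 of 3 effector targets and 3 of 13 constant components (23.1%). Among all genes with a RefSeq window the share was 2581 of 27025 (9.55%). The feedback and effector classes were chosen as genes that NF-kB induces, so these shares are not independent of the split and were not tested. A match describes these letters only and is not a measured binding site, and overlapping matches were counted separately. The stretches below are the 130 bases before the transcript start of 5 feedback genes that hold a match and of Traf1, a feedback gene that holds none in its window. They are printed 5′ to 3′ along the gene, with every base of a match in capitals.
Tnip1, chr11:54962941-54963070, minus strand: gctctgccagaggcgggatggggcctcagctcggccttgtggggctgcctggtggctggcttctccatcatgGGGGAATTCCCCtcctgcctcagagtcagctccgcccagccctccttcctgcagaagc
Nfkbia, chr12:55492648-55492777, minus strand: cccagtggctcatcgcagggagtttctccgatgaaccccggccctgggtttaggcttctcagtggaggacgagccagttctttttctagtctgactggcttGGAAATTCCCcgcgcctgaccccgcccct
Nfkbie, chr17:45555570-45555699, plus strand: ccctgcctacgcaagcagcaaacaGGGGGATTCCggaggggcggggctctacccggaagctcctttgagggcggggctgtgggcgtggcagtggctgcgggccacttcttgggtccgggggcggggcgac
Tnfaip3, chr10:19015411-19015540, minus strand: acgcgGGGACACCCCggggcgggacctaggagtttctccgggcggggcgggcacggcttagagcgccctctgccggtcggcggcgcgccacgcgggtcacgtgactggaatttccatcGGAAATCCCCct
Rel, chr11:23770970-23771099, minus strand: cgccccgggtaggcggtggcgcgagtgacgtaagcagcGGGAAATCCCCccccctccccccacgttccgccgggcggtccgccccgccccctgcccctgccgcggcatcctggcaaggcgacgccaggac
Traf1, chr2:34961773-34961902, minus strand: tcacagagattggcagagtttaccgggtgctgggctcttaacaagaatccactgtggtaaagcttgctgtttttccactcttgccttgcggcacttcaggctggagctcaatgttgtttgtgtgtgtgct

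In Tnip1, 3 overlapping matches run together 58 to 56 bases before the start, centred on GGGAATTCCC. The same 10 bases lie 39 bases before the first listed start of Nfkb2, which has 3 windows and a match in each. Windows 2 and 3 of Nfkb2 overlap, and the only match in window 3 is a site also counted in window 2. Rel has overlapping matches 92 and 91 bases before its start, and Nfkbia has a single match at 29 bases. Among the constant components the matches were in Bcl10, Cyld and Traf3. No match in the windows of Traf1, Birc3 and Tnfrsf1b says only that these letters are not in those stretches.

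Library totals ran from 25119655 to 35373076 counts, and the common biological coefficient of variation was 0.29. Igf2bp1 mRNA, which checks the labels, overlapped between the groups: the shNT libraries held 37, 175 and 201 counts and the shIGF2BP1 libraries 67, 35 and 311. Its log2 fold change, shIGF2BP1 minus shNT, was 0.25 ± 0.79 (SE; edgeR adjusted p = 0.966), and it was negative when either shNT replicate 1 (-0.18) or shIGF2BP1 replicate 3 (-1.24) was left out, by the replicate block (-0.05) and by limma-voom (-0.24). Every direction below therefore compares libraries by their labels. The largest differences between libraries involved shNT replicate 3. Its root mean square log2 difference was 0.80 to 0.86 from shNT replicate 1 and shIGF2BP1 replicates 1 and 2. From shNT replicate 2 and shIGF2BP1 replicate 3 it was 0.71, inside the 0.52 to 0.74 of all other pairs. The labelled cell type was checked on 11 neuroblastoma and sympathetic genes, of which 5 were tested: Hand2 and Mycn, factors of sympathetic development and neuroblastoma, were present at 257 to 479.8 and 31.5 to 51.7 CPM, while Th, Dbh and Chga, genes of catecholamine synthesis and storage, had 0 counts in every library.

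Most members of the pathway were clearly expressed in M1 cells. To compare genes, levels were divided by the length of their annotated exons and given as CPM per kb, where CPM is the read count scaled to a common library size with TMM factors. Rela, the main activating subunit of the canonical arm, was the most abundant member with a mean of 51.2 CPM per kb over the 6 libraries, above 92.4% of all genes tested. Tnfrsf1a, the main TNF receptor, was next, and Nfkb2, the subunit of the non-canonical arm, followed with 42.2 CPM per kb. These 3 levels overlapped over the libraries, from 38.1 to 83.7 for Rela, from 41.8 to 61.3 for Tnfrsf1a and from 24.5 to 79.6 CPM per kb for Nfkb2. Nfkbia, the rapidly induced inhibitor of RelA dimers, came after them at 28.0 CPM per kb. At the low end were Rel at 0.644, Traf1 at 0.192 and Vcam1 at 0.168 CPM per kb. Icam1, an adhesion molecule that NF-kB induces in many cells, had 1, 0 and 2 counts in shNT and 2, 3 and 0 counts in shIGF2BP1 libraries, at or under the limit that a count of 0 allows, and was the member not tested. Exon lengths include all annotated transcripts, which lowers the level per kb of genes with long alternative exons.

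**Figure D1:**
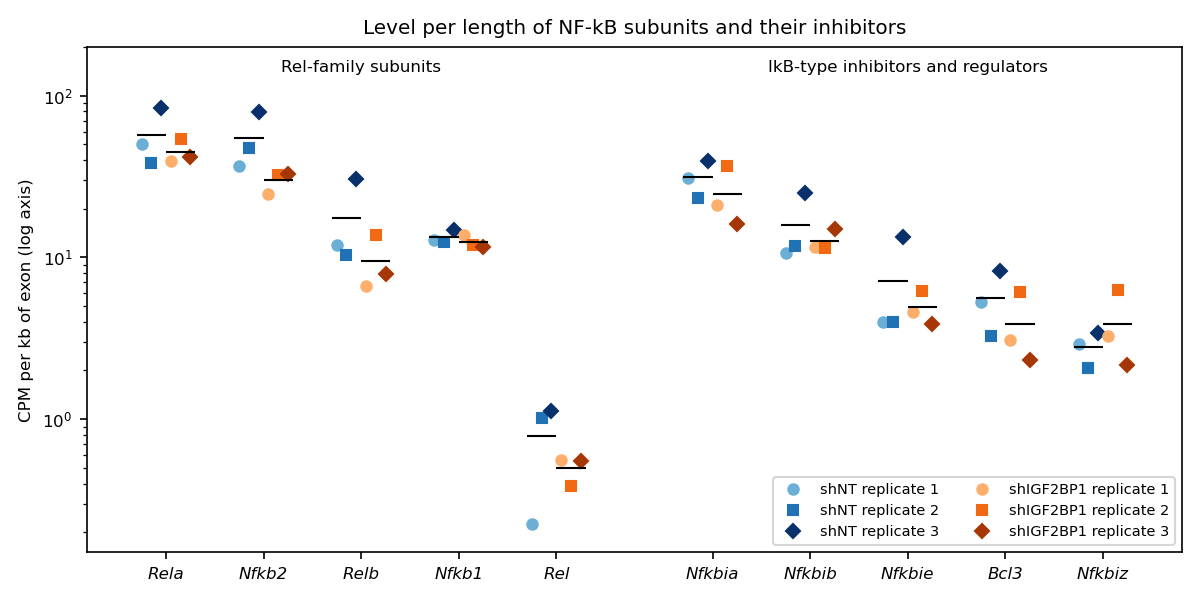
Level per length of the 5 Rel-family subunits and of 5 IkB-type inhibitors and regulators, as CPM per kb of exon on a log axis. Points are the 6 libraries and short lines the group means (n = 3 each). Rela and Nfkb2 are the most abundant subunits and Rel the least, and shNT replicate 3 is the top point for 9 of the 10 genes.

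No member of the pathway passed the test between the groups. By edgeR 0 of 31 members had an adjusted p under 0.05 over all genes, where the share of all genes called was 0.0223%, and the smallest adjusted p among members was 0.584. At an unadjusted p under 0.05 there was 1 member, Nfkb2, or 3.23% of the members against 7.16% of all genes. DESeq2 and limma-voom also called 0 members, with 6 and 1 at an unadjusted p under 0.05. By edgeR that number depended on single libraries. It was 11 without shNT replicate 1, 7 without shNT replicate 2 and 4 without shIGF2BP1 replicate 2. It was 2 without shIGF2BP1 replicate 3, and 0 without shNT replicate 3 or shIGF2BP1 replicate 1. The share of all genes at that level was 4.83% without shNT replicate 3. For DESeq2, limma-voom and the other left-out libraries that share was not taken, so those counts are not set against all genes. The log2 fold changes, shIGF2BP1 minus shNT, were negative for 24 of 31 members (77.4%, against 51.5% of all genes), with a median of -0.35 against -0.01 over all genes tested. By class the median was -0.53 for the feedback genes (12 of 13 negative), -0.51 for the 3 tested effector targets (2 negative) and -0.11 for the constant components (10 of 15 negative). The size of this lean to lower values depended on shNT replicate 3. Without that library 18 of 31 members were negative (58.1%, against 49.8% of all genes), the median over members was -0.08, and the class medians were -0.15, 0.01 and 0.03 in the same order. The feedback genes still leaned lower by count without it, with 10 of 13 negative (76.9%), while 1 of 3 effector targets and 7 of 15 constant components were negative.

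**Figure D2:**
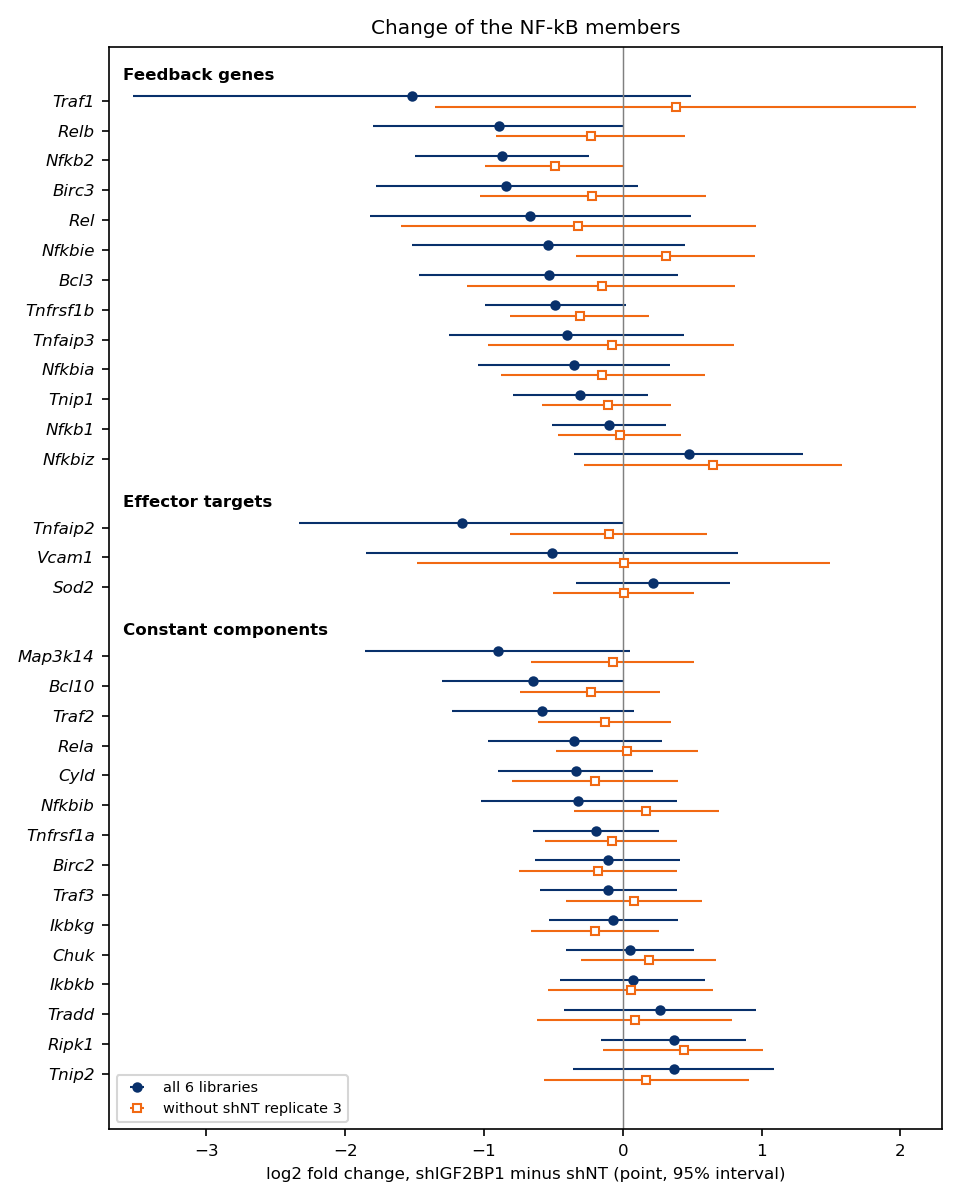
Log2 fold change of each tested member with its 95% interval from the edgeR fit, for all 6 libraries (filled circles) and without shNT replicate 3 (open squares), grouped by class. Only the interval of Nfkb2 lies wholly below 0 with all libraries, and none does without shNT replicate 3.

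Of the subunits, Nfkb2 was the only one whose groups did not overlap. Nfkb2 (ENSMUSG00000025225), on the plus strand of chromosome 19 from 46304320 to 46312385, had 168, 217 and 365 CPM in shNT replicates 1 to 3 and 112, 148 and 151 CPM in shIGF2BP1 replicates 1 to 3. The highest shIGF2BP1 library therefore lay below the lowest shNT library, and the highest value of all was in shNT replicate 3. Group means were 250.0 ± 103 CPM in shNT and 137 ± 21.4 CPM in shIGF2BP1 (SD, n = 3 each). By edgeR the log2 fold change was -0.87 ± 0.28 (SE), its unadjusted p 0.0113 and its adjusted p 0.584. A two-sided exact permutation test on log2 CPM gave p = 0.1, the smallest that 3 against 3 libraries allow. Without shNT replicate 3 the log2 fold change was -0.49, with a 95% interval from -0.99 to 0.01. Groups that did not overlap, with shIGF2BP1 lower, were seen in 2 of 31 members, Nfkb2 and Tnfrsf1b (6.45%, against 5.59% of all genes), and with shIGF2BP1 higher in 0 members against 6.06% of all genes. The exons of Nfkb2 share 830 of their 4584 bases with genes on the other strand, and the strand setting of the counting is not given in the sources used here.

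Relb, the partner of the processed Nfkb2 product, followed the same library. It had 46.3, 40.0 and 119 CPM in shNT and 25.9, 53.5 and 30.9 CPM in shIGF2BP1 libraries, so the groups overlapped, and the log2 fold change was -0.89 ± 0.41 (edgeR adjusted p = 0.705). Without shNT replicate 3 its log2 fold change was -0.23. Rela had 154, 117 and 257 CPM in shNT and 122, 166 and 128 CPM in shIGF2BP1 libraries. The direction depended on shNT replicate 3, with log2 fold changes of -0.35 with that library and 0.03 without it. Nfkb1, the precursor of RelA's usual partner, was the steadiest subunit, at 156, 150.4 and 178 CPM against 167, 145 and 140.1 CPM. Its log2 fold change was -0.10, and the 95% interval from -0.51 to 0.31 bounds any change to well under 2-fold. Rel, a subunit known mainly from lymphoid cells, was low and uneven, with 1.69, 7.57 and 8.44 CPM against 4.16, 2.89 and 4.12 CPM (log2 fold change -0.67, 95% interval -1.82 to 0.49; -0.32 without shNT replicate 3 and -1.11 without shNT replicate 1).

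The 3 IkB inhibitors were each highest in shNT replicate 3 and had negative log2 fold changes that did not pass the test. Nfkbia had 50.04, 37.6 and 63.7 CPM in shNT and 34.0, 59.0 and 25.7 CPM in shIGF2BP1 libraries, and the groups overlapped across most of their range (log2 fold change -0.35, 95% interval -1.04 to 0.34; -0.15 without shNT replicate 3 and -0.74 without shIGF2BP1 replicate 2). Within the shIGF2BP1 group its levels spread over more than 2-fold, with replicate 2 high. Nfkbie, an inhibitor induced with a delay, had 12.1, 12.1 and 40.9 CPM against 14.0, 19.0 and 11.9 CPM. shNT replicate 3 alone set that gene's negative sign: its log2 fold change of -0.54 became 0.31 without it. Nfkbib, an inhibitor that is little induced by NF-kB, had 23.1, 25.7 and 53.9 CPM against 25.1, 24.9 and 32.3 CPM, and its log2 fold change of -0.32 likewise became 0.17.

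The nuclear IkB-type regulators differed from each other. Bcl3, which binds subunits encoded by Nfkb1 and Nfkb2, had 13.2, 8.04 and 20.3 CPM against 7.67, 15.2 and 5.76 CPM (log2 fold change -0.53, 95% interval -1.47 to 0.40; -0.15 without shNT replicate 3 and -1.03 without shIGF2BP1 replicate 2). Nfkbiz, a cofactor for a subset of inflammatory genes, was the only feedback gene with a positive log2 fold change and the only one not highest in shNT replicate 3. It had 14.6, 10.3 and 17.2 CPM in shNT and 16.4, 31.4 and 10.9 CPM in shIGF2BP1 libraries, with the high value in shIGF2BP1 replicate 2 (log2 fold change 0.48, edgeR adjusted p = 0.853; -0.03 without shIGF2BP1 replicate 2).

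Among the other feedback genes, Traf1, an adapter of TNF receptors, showed the widest swing. It held 35, 6 and 205 counts in shNT and 25, 32 and 21 counts in shIGF2BP1 libraries, which is 1.18, 0.176 and 6.20 CPM against 0.954, 0.908 and 0.766 CPM. shNT replicates 2 and 3 were the lowest and the highest of the 6 libraries, and replicate 3 held 60.9% of the summed CPM. Its log2 fold change was -1.52 ± 0.91 with all libraries and 0.38 when replicate 3 was left out. Birc3, a ubiquitin ligase that blocks cell death downstream of TNF receptors, had 9.87, 5.78 and 20.5 CPM against 6.41, 8.09 and 5.73 CPM, and its log2 fold change went from -0.84 to -0.22 without that library. Tnfaip3, an enzyme that edits ubiquitin chains to end the signal, and its binding partner Tnip1 had log2 fold changes of -0.40 and -0.31, with groups that overlapped, and -0.08 and -0.11 without shNT replicate 3. Tnfrsf1b, the inducible TNF receptor, had 45.0, 46.5 and 63.4 CPM in shNT and 29.7, 39.4 and 41.5 CPM in shIGF2BP1 libraries. Its groups did not overlap (log2 fold change -0.49 ± 0.23, edgeR adjusted p = 0.722), and without shNT replicate 3 its log2 fold change was -0.31, with a 95% interval from -0.81 to 0.19.

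The effector targets gave no common direction. Tnfaip2, a cytoplasmic protein first found as a TNF-induced transcript, had 26.2, 19.2 and 97.0 CPM in shNT and 13.9, 21.2 and 28.5 CPM in shIGF2BP1 libraries. shNT replicate 3 was the high library again, and the log2 fold change of -1.16 ± 0.53 (edgeR adjusted p = 0.70) became -0.10 without it. Sod2, the mitochondrial superoxide dismutase, went the other way within the shNT group, with 156, 103 and 76.7 CPM. In shIGF2BP1 libraries Sod2 lay close together at 128, 128 and 135 CPM, inside the shNT range (log2 fold change 0.22, 95% interval -0.34 to 0.77; 0.01 without shNT replicate 3 and 0.53 without shNT replicate 1). shNT replicate 3, which was highest for 23 of the 31 tested members, was thus the lowest library for Sod2. Vcam1, an adhesion molecule, was low at 0.977, 1.47 and 2.81 CPM against 0.572, 0.936 and 2.19 CPM.

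Of the constant components, several belong to the non-canonical arm. Map3k14 encodes NIK, and Traf2, Traf3 and Birc2 encode parts of the ligase complex that degrades NIK in resting cells. Map3k14 had 13.8, 14.3 and 46.9 CPM in shNT and 11.4, 14.3 and 14.3 CPM in shIGF2BP1 libraries. Apart from shNT replicate 3 these values lay within 11.4 to 14.3 CPM, and the log2 fold change of -0.90 ± 0.43 (edgeR adjusted p = 0.724) became -0.07 without that library. Traf2 had 31.2, 39.0 and 73.2 CPM against 31.6, 30.6 and 33.9 CPM, with the same library high, and its log2 fold change was -0.58 with it and -0.13 without it. Traf3 and Birc2 had log2 fold changes of -0.11 each, and Birc2 was not raised in shNT replicate 3, at 40.8 CPM against 32.4 to 54.5 CPM in the other 5 libraries.

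For the core kinase complex the data bound any change. Ikbkb and Chuk, its catalytic subunits, had log2 fold changes of 0.07 and 0.05, with 95% intervals from -0.45 to 0.59 and from -0.41 to 0.51. Ikbkg, the regulatory subunit, had a log2 fold change of -0.07 (95% interval -0.53 to 0.40), and 418 of its exon bases overlap G6pdx on the other strand. For these 3 genes a 2-fold change in either direction lies outside the interval. Bcl10, which links antigen and other receptors to the kinase complex, had 49.5, 40.3 and 90.2 CPM in shNT and 38.9, 32.2 and 43.8 CPM in shIGF2BP1 libraries. Its log2 fold change of -0.65 ± 0.29 had the smallest unadjusted p of the class, 0.0505 (edgeR adjusted p = 0.695), and was -0.23 without shNT replicate 3.

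The groups overlapped for the constant components named next, which act at or near receptors. Tnfrsf1a had 142, 114 and 159 CPM against 108, 139 and 115 CPM (log2 fold change -0.19, 95% interval -0.65 to 0.26). Tradd, its adapter, had 24.9, 12.3 and 12.0 CPM against 22.5, 18.6 and 18.3 CPM. Ripk1, the kinase and scaffold recruited to the receptor, had 15.5, 16.3 and 18.4 CPM in shNT and 25.6, 17.5 and 21.7 CPM in shIGF2BP1 libraries, overlapping at 1 library of each group (log2 fold change 0.37 ± 0.24, edgeR adjusted p = 0.809). Cyld, which removes ubiquitin chains from pathway adapters, and Tnip2, a relative of Tnip1, had log2 fold changes of -0.34 and 0.37, both with intervals that include 0.

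Most tested members had their highest value in 1 library, shNT replicate 3. The highest of the 6 CPM values lay in shNT replicate 3 for 12 of 13 feedback genes (92.3%), 2 of 3 tested effector targets and 9 of 15 constant components (60%), against 24.5% of all genes tested. Of the 8 other members, 4 were highest in shIGF2BP1 replicate 2, 2 in shNT replicate 1, 1 in shNT replicate 2 and 1 in shIGF2BP1 replicate 1, where those libraries were highest for 17.5%, 18.1%, 15.9% and 12% of all genes. In shNT replicate 3 the CPM was over 2 times the mean of the other 5 libraries for 13 of 31 members (41.9%, against 4.25% of all genes). The median ratio to the other 5 libraries was 2.03 for feedback genes, 1.28 for constant components and 0.977 for all genes. The median SD of log2 CPM of the feedback genes was 0.66 in shNT and 0.29 in shIGF2BP1, where all genes had 0.36 and 0.25. The shNT SD includes the values of replicate 3, so it restates the ratios and is not a separate result. These shares describe these libraries and were not tested, since members were listed with earlier results known.

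**Figure D3:**
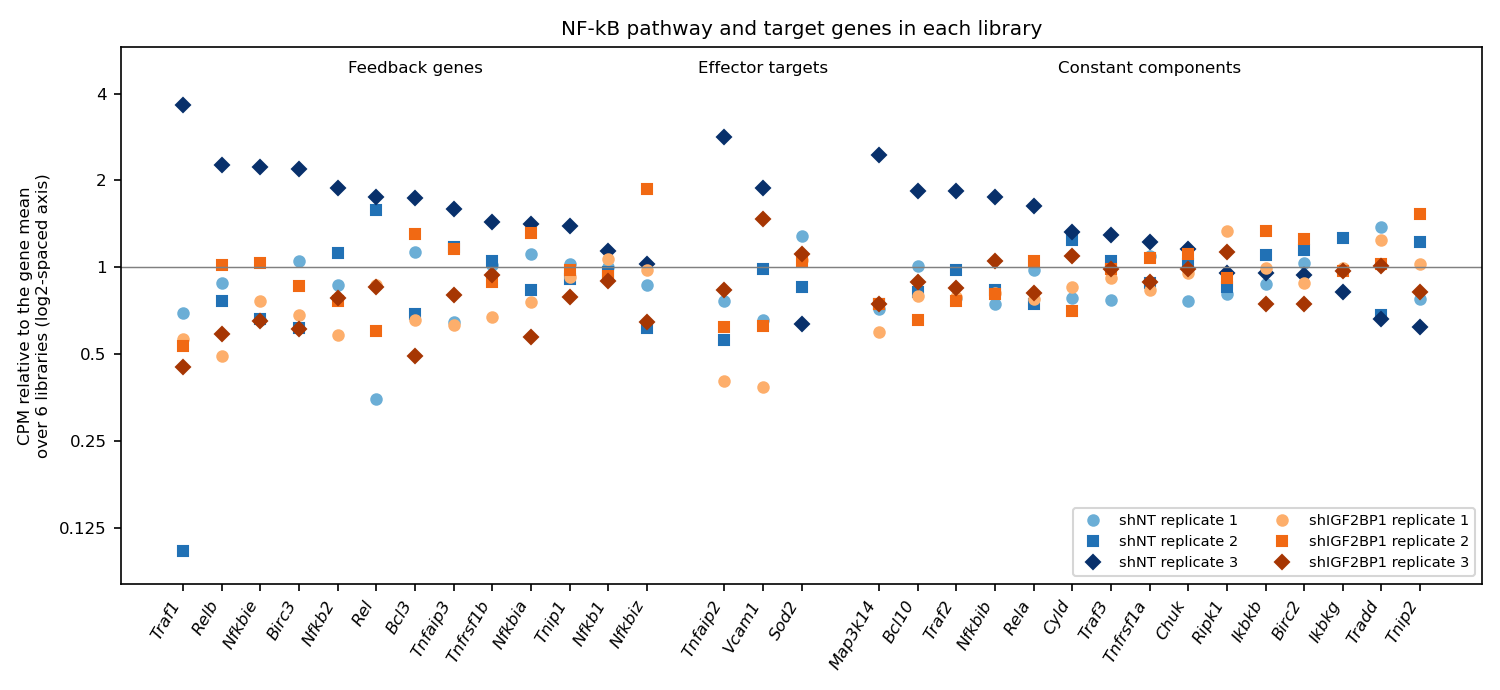
CPM of each tested member divided by its mean over the 6 libraries, on a log2-spaced axis, with genes ordered within each class by their level in shNT replicate 3 against the other 5 libraries. Blue points are shNT and orange points shIGF2BP1 libraries. The dark blue diamonds of shNT replicate 3 are the top points for 12 of 13 feedback genes and near or below the mean for the constant components at the right.

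**Figure D4:**
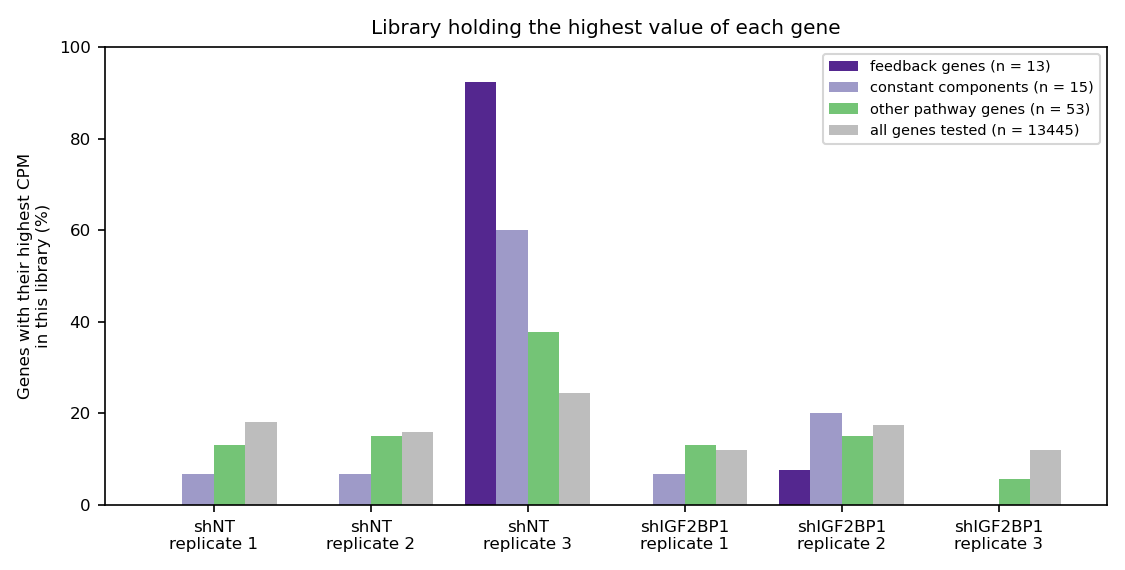
Share of genes, in percent, whose highest CPM lies in each library, for feedback genes, constant components, other pathway genes and all genes tested. shNT replicate 3 holds 92.3% of the feedback genes, 60% of the constant components, 37.7% of the other pathway genes and 24.5% of all genes.

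Values that could bear on shNT replicate 3 are given here. Its depth of 33385813 counts and its mitochondrial share of 2.36% lay inside the ranges of the other libraries (25119655 to 35373076 counts, and 2.21% to 3.69%). Its 100 most abundant genes took 15.5% of counts, the lowest share, against 16.4% to 21.1% in the others. Of 10 macrophage and leukocyte markers 4 were tested. Their summed CPM over all 10 was 11.8, 17.3 and 15.8 in shNT and 9.12, 9.39 and 8.46 in shIGF2BP1 libraries, without overlap. Cd68, at 3.14 to 14.7 CPM, made up most of this sum in shNT libraries and shIGF2BP1 replicate 2. In shIGF2BP1 replicates 1 and 3 Cd14 was higher than Cd68, at 3.89 and 3.83 against 3.66 and 3.14 CPM. The log2 fold change was -1.52 for Cd68, and 2.57, 0.56 and 0.06 for Fcer1g (at most 0.567 CPM), Cd14 and Lyz2. Their edgeR adjusted p ran from 0.403 to 0.99. The defining leukocyte markers Ptprc, Tyrobp and Adgre1 had 1, 0 and 0 counts over all 6 libraries. Sums over 6 endothelial markers were 37.1 to 53.8 CPM in shNT and 31.1 to 73.7 CPM in shIGF2BP1, mostly from Pecam1 at 28.5 to 72.8 CPM, with Kdr at 0.802 to 9.94 CPM, Cdh5 at 2 counts and Emcn at 0 in all. Sums over 7 fibroblast markers were 375 to 462 CPM in shNT and 290.0 to 575 CPM in shIGF2BP1, mostly from Col1a1 at 228 to 493 CPM, with Lum at 0. shNT replicate 3 was not the highest library in any of these 3 sums. The sum over 11 neuroblastoma and sympathetic markers was 564, 340 and 353 CPM in shNT and 534, 523 and 504 CPM in shIGF2BP1 libraries. Most of it came from Hand2. The 4 marker lists held 5 tested neuroblastoma and sympathetic, 4 macrophage and leukocyte, 2 endothelial and 4 fibroblast markers. Of these tested markers 4 were highest in shNT replicate 3, a share near the 24.5% of all genes tested. Pdgfrb and Pdgfra, growth factor receptors of mesenchymal cells, had 126 CPM against 29.7 to 68.8 CPM and 28.8 CPM against 12.7 to 22.1 CPM in the others. The other tested fibroblast markers did not peak there. Col1a1 had 280 CPM against 228 to 493 CPM, and Dcn had 8.14 CPM against 7.43 to 12.1 CPM. Gata3 and Isl1, transcription factors of sympathetic neurons, had 28.3 CPM against at most 14.5 CPM and 33.4 CPM against at most 31.6 CPM. The other tested markers of that list did not peak in shNT replicate 3. Hand2 and Ddc were lowest there, at 257 CPM against 262 to 479.8 CPM and 0.0605 CPM against 0.117 to 1.56 CPM. Mycn had 34.3 CPM there against 31.5 to 51.7 CPM. The part of these markers and of library make-up in the NF-kB values was not tested.

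Ligands, receptors, adapters and further targets were read from a second list of 72 pathway genes, of which 53 were tested. By edgeR 0 passed an adjusted p of 0.05 (smallest 0.497), 8 had an unadjusted p under 0.05 (15.1%, against 7.16% of all genes), 2 higher and 6 lower, and 33 of 53 log2 fold changes were negative with a median of -0.25, where 51.5% of all genes were negative. Without shNT replicate 3 the median of this list was -0.04, with 30 of 53 negative (56.6%, against 49.8% of all genes). In that fit 5 had an unadjusted p under 0.05 (9.43%, against 4.83% of all genes). DESeq2 and limma-voom called 0 as well. The classical ligands were close to absent: Tnf, Il1a and Tnfsf11 had 0 counts in every library, which allows up to 0.0851 to 0.114 CPM per library, and Il1b and Lta had 1 count each in all. Tnfsf12, the ligand of the receptor Tnfrsf12a, was present at 9.19 to 16.1 CPM in the 6 libraries.

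The 3 tested genes of this list with the smallest p were receptors or their kinase. Tlr4, the receptor for bacterial lipopolysaccharide, had 14.2, 13.1 and 9.59 CPM in shNT and 28.8, 21.6 and 19.8 CPM in shIGF2BP1 libraries, so every shIGF2BP1 library was above every shNT library (log2 fold change 0.93, 95% interval 0.35 to 1.51, edgeR adjusted p = 0.497). Il1r1, the signalling receptor for interleukin-1, had 23.6, 24.9 and 41.0 CPM against 14.2, 15.3 and 18.5 CPM, again without overlap but with shIGF2BP1 lower (log2 fold change -0.90, edgeR adjusted p = 0.524). Map3k7, the kinase that activates the IkB kinase complex, had 63.5, 70.3 and 82.3 CPM against 112, 102 and 95.4 CPM, with shIGF2BP1 higher and no overlap (log2 fold change 0.52, edgeR adjusted p = 0.637). Unlike most members, these 3 had log2 fold changes of 0.77, -0.60 and 0.62 without shNT replicate 3, in the order given, and none was called there.

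Of the second list, 20 of 53 tested genes peaked in shNT replicate 3 (37.7%, against 24.5% of all genes), and those named here were chosen after their values were seen. Il6, a cytokine target, had 3.66 CPM in that library and 0.236 to 0.401 CPM in the other 5. Tnfrsf12a had 159 CPM against 14.6 to 36.7 CPM, Ptgs2, the inducible prostaglandin synthase, had 32.8 against 3.74 to 11.5 CPM, and Csf1, the macrophage growth factor, had 302 against 62.6 to 128 CPM. For these 4 genes the shNT replicate 3 value lay above every other library, including the other shNT libraries. Other targets did not peak there: Cxcl1, a chemokine, had 4.81 CPM against 2.94 to 9.99 CPM, Cxcl10, another chemokine, had 0.544 against 0.305 to 1.56 CPM, and Plau, a secreted protease, had 21.8 against 6.71 to 41.1 CPM. On the whole list the ratio of shNT replicate 3 to the mean of the other 5 libraries was over 2 for 12 of 53 genes (22.6%), between the 41.9% of the members and the 4.25% of all genes.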

How the data were processed

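The authors deposited unnormalised whole-number counts of reads for each gene, and each of the 6 columns carries a library name that 1 sample's labels also give. Per the labels' protocols, libraries were made from poly-A RNA with a stranded kit and read from both ends. HISAT2 2.1.0, HTSeq and GRCm38 are named in the submitters' processing notes; for annotation release and strand setting, the sources used here give nothing. The 92 spike-in rows had 0 counts and were left out. Symbols, coordinates and exon lengths came from GENCODE M21 and matched 42548 IDs, and the 1081 others held 0.111% of reads.

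edgeR 4.0.16 in R 4.3.3 was fitted on all 6 libraries with TMM, filterByExpr at its defaults (minimum count 10, total 15) and the robust quasi-likelihood F test, two-sided, without covariates, with Benjamini-Hochberg adjustment over all genes tested and a threshold of 0.05. SE and intervals came from that F. Log2 CPM used a prior count of 2. A count of 0 allows 3 counts, or 0.0851 to 0.114 CPM, and covers counting error only. On simulated data of this comparison with 13445 genes, edgeR recovered 20.6% of genes changed 2-fold and 79.7% of those changed 4-fold. Alternatives were RLE, library size only, no filter, mean CPM of at least 5, the replicate block, leaving out each library, DESeq2 1.42.0 and limma-voom 3.58.1. No 2 libraries agreed within sampling noise (chi-square per gene 47.8 to 253).

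The members and lists were chosen with earlier results of these data known. Values per library are given by rule for subunits, IkB-type genes, members with an unadjusted p under 0.05, the 2 smallest p of each class, members with over 50% of CPM in 1 library, and the 3 smallest p of the second list. Other genes are named for their role in the pathway, after their values were seen.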

Additional observations from a re-analysis of the deposited data

How the results depend on the processing

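No alternative called a member. The number of all genes called was 3, and 138 with no filter, 82 with DESeq2, 18 with the replicate block and 1 with mean CPM of at least 5 or limma-voom, and 1 to 5 without 1 library. Members at an unadjusted p under 0.05 numbered 1, and 6 with no filter or DESeq2, 4 with the replicate block and 0 to 11 without 1 library (0 without shNT replicate 3, 11 without shNT replicate 1). For these alternatives the share of all genes at that level was taken only without shNT replicate 3, at 4.83%. The median over members ranged from -0.54 to -0.08 when libraries were left out. Deviations from the group means correlated at 0.19, -0.09 and 0.28 between libraries of like number, and shIGF2BP1 replicate 2 correlated more with shNT replicate 1 (0.22), so the numbers were not taken to pair the samples. Signs changed for Ikbkg with library size only (0.02) and for Igf2bp1 with the replicate block (-0.05) and limma-voom (-0.24). When libraries were left out in turn the log2 fold change crossed 0 for Nfkbie (-0.83 to 0.31), Nfkbiz (-0.03 to 0.76), Traf1 (-2.07 to 0.38), Vcam1 (-1.21 to 0.01), Rela (-0.57 to 0.03), Nfkbib (-0.54 to 0.17), Ikbkb (-0.15 to 0.25), Chuk (-0.10 to 0.19), Ikbkg (-0.20 to 0.12), Traf3 (-0.28 to 0.08), Birc2 (-0.34 to 0.04) and Igf2bp1 (-1.24 to 0.76). The cause was not tested. With mean CPM of at least 5, Rel, Traf1, Vcam1 and Igf2bp1 had no value. At this depth and spread a 2-fold change was often not detectable.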
